A study of Homo sapiens with 6 samples.

Results

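Calcium/calmodulin-dependent protein kinase II (CaMKII), its inhibitor proteins and calmodulin were followed in RH36 cells that received miR-27a. The set comprised the kinase genes CAMK2A, CAMK2B, CAMK2D and CAMK2G, the inhibitor genes CAMK2N1 and CAMK2N2, and the calmodulin genes CALM2 and CALM3. Every probe carrying one of these names in the array files was taken, which gave 14 probes for 8 genes, of 41000 probes and 30484 gene names on the array. The genes were put together with earlier results of these arrays known. The differences and p-values of these 14 probes are therefore a description, and nothing is concluded from them.

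RH36 cells are an established line from an embryonal rhabdomyosarcoma, a muscle-like tumour, and lack the PAX3/FOXO1 translocation. The cells were transfected with the precursor of miR-27a (pre-miR-27a, 3 arrays) or with a negative control precursor (pre-control, 3 arrays). By the labels the precursors were used at 10 nM, and the pre-miR-27a cells were taken at 48 hours, with no such time for pre-control. The methods of the study describe a higher concentration and a shorter time until the miRNA was measured, so dose and time are in doubt. Both groups share line and medium, the transfection is transient, and the arrays are called biological replicates. RNA was labelled with Cy3 and hybridized to 1-colour Agilent whole-genome arrays. Slide 1 held the pre-control group and slide 2 the pre-miR-27a group, each with its own scan, and the effects of slide and of transfection cannot be told apart.

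The CaMKII holoenzyme is built from subunits of the alpha, beta, delta and gamma genes. Calcium-loaded calmodulin binds each subunit, releases the autoinhibitory segment from the catalytic site, and allows the kinase to phosphorylate itself and stay active after calcium has fallen. CAMK2N1 and CAMK2N2 encode small proteins that bind the activated kinase and block its catalytic site. In skeletal muscle the kinase acts on calcium handling and, through class II histone deacetylases, on muscle gene transcription.

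The agent that separates the groups is shown first, because the seed is what a miRNA of this family reads its targets with. The mature sequences were taken from RefSeq (GRCh38.p14), where miR-27a lies at chr19:13836447-13836467 on the minus strand, and are written 5′ to 3′ with the seed, bases 2 to 8, in capitals.
hsa-miR-27a-3p: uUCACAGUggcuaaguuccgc
hsa-miR-27b-3p: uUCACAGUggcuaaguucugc
Both mature forms are 21 bases long, share the seed and differ at 1 base, at position 19 counted from the 5′ end. No transcript sequence was used here, so sites for this seed in the 8 genes were not searched.

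Signals below are log2 of the processed intensity after quantile normalization. A log2 fold change is the mean of the pre-miR-27a arrays minus that of the pre-control arrays. Differences were fitted with limma over all 36469 probes kept, and p-values were adjusted over all of them by the Benjamini-Hochberg method, with a threshold of 0.05. The share of spots well above background was 69.9% to 73.9% in the pre-control and 74.1% to 78.0% in the pre-miR-27a group. Around the spots the median background was 74.5 to 76 intensity units on the former arrays and 52.5 to 53 on the latter. Of the 9 myogenic marker genes listed for the cell type, 8 were measured, all of them well above background on all 6 arrays, including MYOD1, MYOG and DES, while MYF5 was not kept. MYOG, MYOD1 and CDH15 were lower by log2 values of -0.95, -0.45 and -0.35, with groups that did not overlap, and were called with the replicate block described below but not without it (adjusted p = 0.140, 0.0787 and 0.0561 from limma). MYH8 went the other way, at 0.40 with groups that overlapped. It was called higher with the block (adjusted p = 0.0442) but not without it (adjusted p = 0.866). Among markers of other cell types, PTPRC, LYZ, EPCAM, CDH1 and SYP were not well above background on any array. In contrast, 5 of 7 neuronal, 2 of 5 leukocyte and 2 of 5 epithelial markers were well above it on all 6. Of these, SLC17A7 (-0.74), CD3E (-0.44), CD14 (-0.71) and KRT8 (-0.70) were called lower and KRT18 (0.51) higher. Neuronal markers went both ways, 4 of the 7 above 0 and 3 below. SNAP25 was at -0.42 without overlap (adjusted p = 0.170 from limma). RBFOX3 was at 0.48 with overlap (adjusted p = 0.441) and SYT1 at 1.77 without it (adjusted p = 0.214), each with a missing array. The SYT1 signal was dim in the pre-control group. The summed signal of the neuronal markers was 12.7 to 13.0 on pre-control and 12.8 to 13.0 on pre-miR-27a arrays, that of the leukocyte markers was 8.51 to 8.67 and 8.07 to 8.17, and that of the epithelial markers was 11.4 to 11.5 and 11.2 to 11.3. The leukocyte and the epithelial sums did not overlap between groups, and the part of all these markers in the values below was not tested.

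All 14 probes passed the filter on missing spots, 13 were well above background on all 6 arrays, and no spot of theirs was flagged as saturated or as an outlier. The limma fit called 1 of the 14, the only CAMK2N2 probe, which was lower on pre-miR-27a arrays. Over all probes kept, 7.83% were called, 3.95% higher and 3.88% lower. With the replicate number as a block, 2 CAMK2N1 probes were called higher and CAMK2N2 and 1 CALM3 probe lower, where 14.9% of all probes were called, 7.24% higher and 7.62% lower. The groups of arrays did not overlap for 4 of the 14 probes, 2 higher and 2 lower, and for 32.5% of all probes, 14.8% higher and 17.8% lower. At an unadjusted p under 0.05 there were 3 higher and 2 lower, beside 24.8% of all probes, 11.6% higher and 13.2% lower. The genes were chosen on this contrast, so nothing is read from these counts against the shares. SAM is the test named in the methods of the study, whose results describe a paired form with calls spread evenly over both directions. Here it was coded for unpaired groups, so its calls are not those of the study. In this form SAM called CAMK2N2 and no other of the 14 at a false discovery rate of 1.9% and at 5%, with 1.31% (1.27% higher, 0.0315% lower) and 5.75% (3.94% higher, 1.81% lower) of the probes called. The median log2 fold change was 0.11 over the 13 probes well above background and -0.02 over all probes kept.

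**Figure D1:**
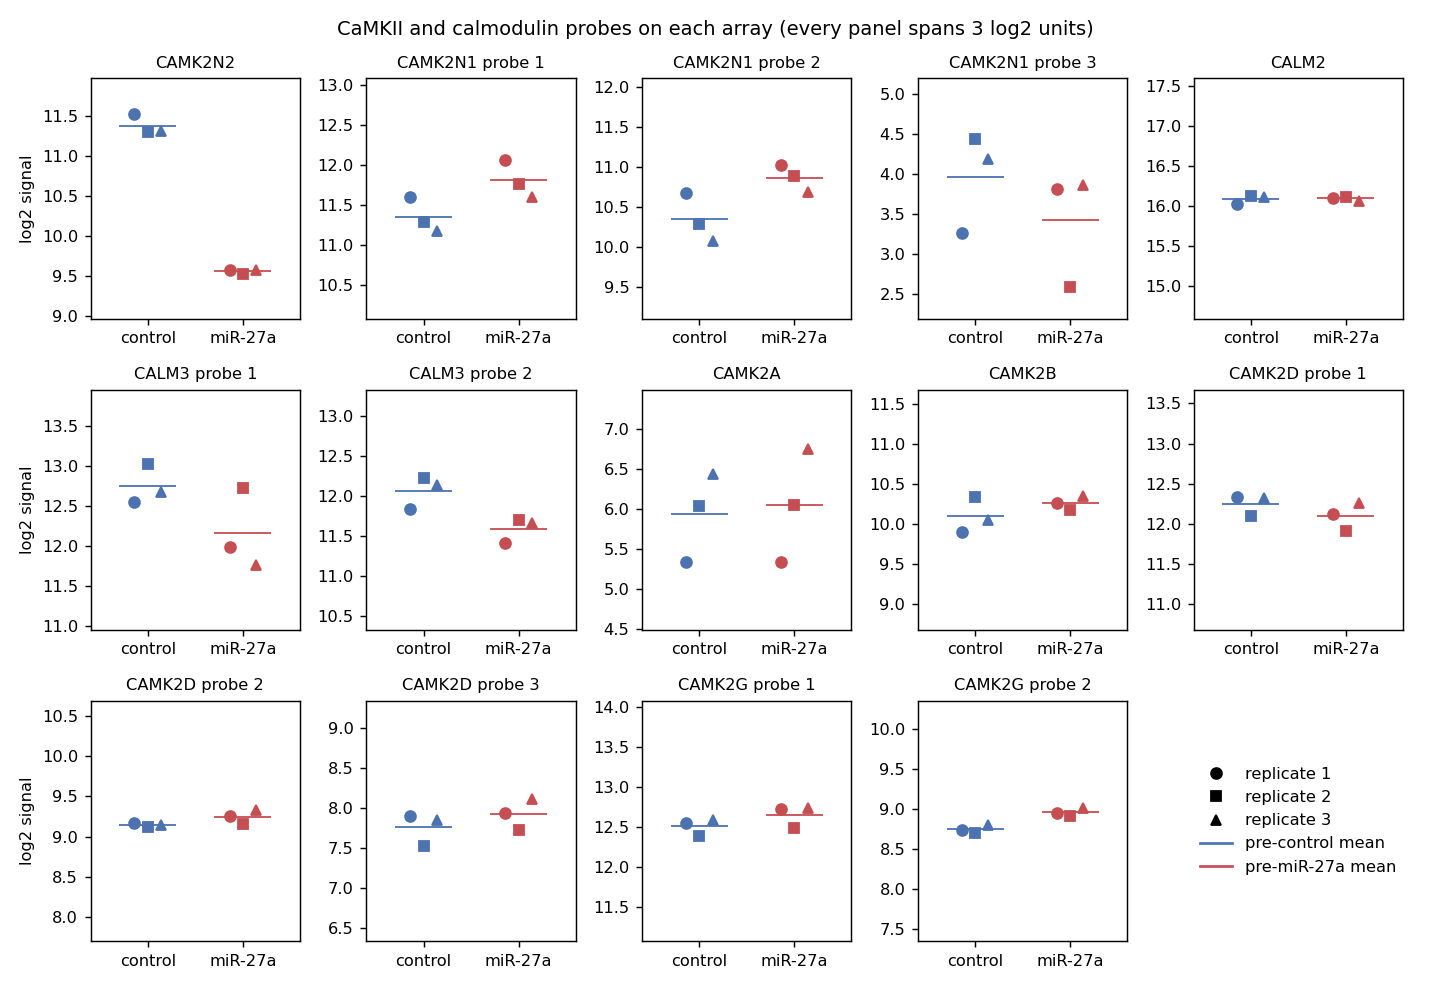
log2 signal (y axis, 3 units in every panel) of the 14 probes on the 3 pre-control and 3 pre-miR-27a arrays, with the marker shape giving the replicate number and the line the group mean. Probes of a gene are numbered from the brightest. The CAMK2N2 arrays separate by group, with pre-miR-27a at 9.53 to 9.57 and pre-control at 11.31 to 11.52.

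CAMK2N2 fell on pre-miR-27a arrays. This gene encodes the inhibitor that was isolated as a CaMKII-binding protein of brain. Its probe (NM_033259, chromosome 3, 185461883 to 185461942, hg18) had signals of 11.52, 11.31 and 11.31 on pre-control arrays 1, 2 and 3. On the pre-miR-27a arrays the signals were 9.57, 9.53 and 9.57. All pre-miR-27a values lay far below all pre-control values, and the spread within each group was small beside the gap. The means were 11.38 ± 0.12 (SD, n = 3) and 9.56 ± 0.02 (SD, n = 3). The log2 fold change was -1.82 (standard error 0.09, 95% interval -2.04 to -1.60, adjusted p = 0.0161 from limma), a 3.53-fold lower signal. An exact permutation test of the 6 arrays gave a two-sided p of 0.1, the smallest that 3 arrays against 3 allow. Any probe measured on all 6 arrays without overlap between the groups gives this p, as 1 probe each of CALM3, CAMK2G and CAMK2N1 did. The groups did not overlap for 32.5% of all probes, so nothing is concluded from it. Among the 1302 probes called lower and well above background on all arrays, the fall of CAMK2N2 was the 4th by size. Among all 36469 probes kept its log2 fold change was the 45th from the lowest. The gene was chosen with this contrast known, so nothing is concluded from either rank. No second probe on the array measures CAMK2N2, so the fall rests on 1 probe.

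The call of CAMK2N2 held under all 8 alternatives that used every array, with log2 fold changes from -1.82 to -1.70 and adjusted p from 0.00128 to 0.0334. With single arrays left out the value stayed between -1.85 and -1.75. It was called without pre-control replicate 1 (adjusted p = 0.0424) and without pre-control replicate 3 (adjusted p = 0.0492), and was not called without any of the other 4 arrays (adjusted p 0.0635 to 0.0767). In those 4 fits limma called 0 probes of the whole array, with 7178 to 7686 at an unadjusted p under 0.05. The local background at this spot was 69.7 units on pre-control and 54.0 on pre-miR-27a arrays, against processed signals of 2522 to 3219 and 709 to 750 units. Of the 14 probes, CAMK2N2 thus had the largest difference, and it alone lay outside the 5th to 95th percentile of all probes, -0.64 to 0.76.

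**Figure D2:**
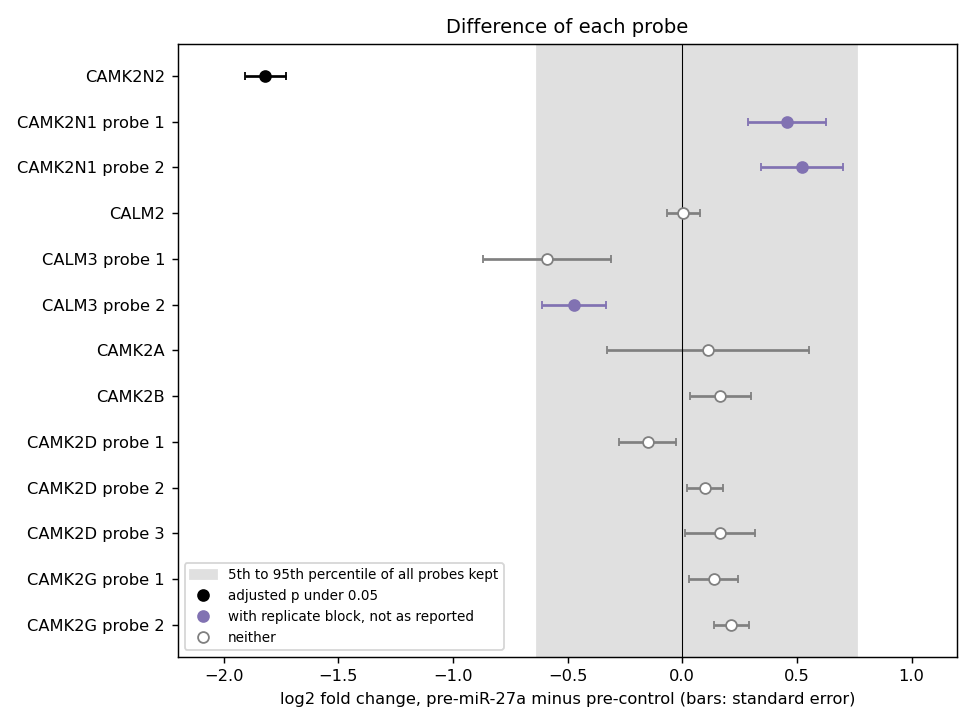
log2 fold change (x axis) of the 13 probes well above background on all arrays, with its standard error. The grey band runs from the 5th to the 95th percentile of all probes kept, and colours mark the calls with and without the replicate block. CAMK2N2 lies at -1.82 while the probes of CAMK2N1 that measured a signal lie at 0.46 and 0.52.

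CAMK2N1, the paralogous inhibitor, went the other way on the pair of probes that measured it. The brighter probe (NM_018584, chromosome 1, 20681988 to 20682047) was at 11.60, 11.28 and 11.17 on pre-control arrays 1, 2 and 3. It was at 12.07, 11.76 and 11.60 on the pre-miR-27a arrays. The highest pre-control array and the lowest pre-miR-27a array were level, so the groups touched. The log2 fold change was 0.46 (standard error 0.17, 95% interval 0.03 to 0.88, adjusted p = 0.176). The second probe (20682739 to 20682798) was at 10.67, 10.29 and 10.08 on pre-control arrays and at 11.03, 10.88 and 10.69 on pre-miR-27a arrays. Here the groups did not overlap, by a narrow margin. Its log2 fold change was 0.52 (standard error 0.18, 95% interval 0.08 to 0.97, adjusted p = 0.148).

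Arrays with the same replicate number deviated together for CAMK2N1. Within the pairs of same-numbered arrays the brighter probe was higher by 0.47, 0.48 and 0.42, and the second by 0.36, 0.60 and 0.62. With the replicate number as a block both probes passed the threshold (adjusted p = 0.0340 and 0.0415 from limma). Neither passed without it in any of the other settings, where they lay between 0.33 and 0.69. The replicate numbers are also the positions on the slides. Of the spike-in transcripts on the arrays, 8 of 10 were well above background throughout, and after each array was scaled to its 75th percentile 7 of the 8 were higher on slide 2, with a median difference of 0.21 and a range of -0.12 to 0.38. On that scale the CAMK2N1 probes were at 0.45 and 0.53 and CAMK2N2 was at -1.80. The part of the slide in these values was not tested.

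The third probe named CAMK2N1 stands for the transcript AF116637 and is listed in ascending coordinates (20682339 to 20682398), opposite to the other probes of the gene. On none of the 6 arrays was it well above background. Its log2 signals were 3.26, 4.44 and 4.19 on pre-control arrays and 3.81, 2.58 and 3.87 on pre-miR-27a arrays. These values overlapped, and no fold is given for a probe that is dim in both groups. The inhibitor gene is thus described by the other probes.

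**Figure D3:**
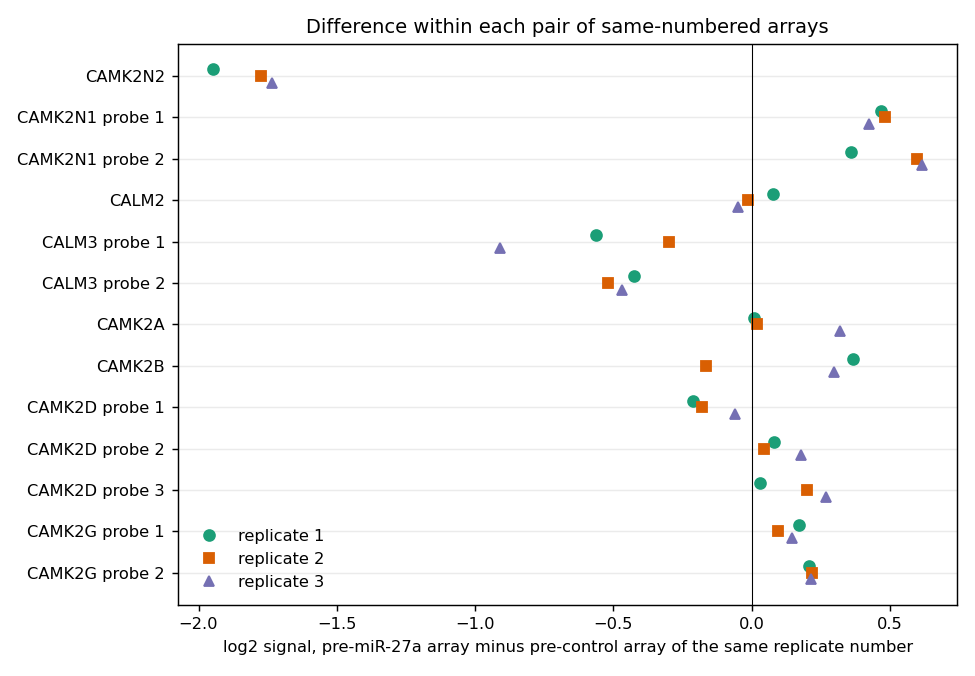
Difference in log2 signal between the pre-miR-27a and the pre-control array of each replicate number (x axis) for the 13 probes well above background on all arrays. CAMK2N2 lies between -1.95 and -1.73 in the 3 pairs, the brighter CAMK2N1 probe between 0.42 and 0.48, and the dimmer CALM3 probe between -0.52 and -0.42.

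Calmodulin, the calcium sensor that switches the kinase on, is encoded by separate genes that specify the same protein, CALM2 and CALM3 among them. CALM2 was measured by 1 probe (NM_001743, chromosome 2, 47240852 to 47240911). Its signals were 16.03, 16.12 and 16.11 on pre-control arrays and 16.10, 16.11 and 16.06 on pre-miR-27a arrays. The groups overlapped fully. The difference was 0.00 on the log2 scale (95% interval -0.17 to 0.18, standard error 0.07, adjusted p = 0.978). With 75th percentile scaling it was at -0.18 (adjusted p = 0.299). Processed pseudogenes of CALM2 exist, and whether transcripts from them reach this probe was not tested.

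CALM3 was lower on both of its probes. The brighter one (NM_005184, chromosome 19, 51805598 to 51805657) was at 12.55, 13.02 and 12.67 on pre-control arrays and at 11.99, 12.72 and 11.76 on pre-miR-27a arrays. Pre-miR-27a replicate 2 lay among the pre-control values, and the other pre-miR-27a arrays lay below them. The log2 fold change was -0.59 (standard error 0.28, 95% interval -1.28 to 0.10, adjusted p = 0.262). Without pre-miR-27a replicate 2 it was at -0.87, and without pre-miR-27a replicate 3 at -0.39, and neither value was called. The dimmer probe (51803329 to 51803388) was at 11.83, 12.22 and 12.13 on pre-control arrays and at 11.41, 11.69 and 11.66 on pre-miR-27a arrays. No value of the second group reached the lowest of the first.

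For that probe the log2 fold change was -0.47 (standard error 0.14, 95% interval -0.82 to -0.12, adjusted p = 0.107). It was called with the replicate block (adjusted p = 0.0343) and after normexp background correction (-0.48, adjusted p = 0.0433), and in no other setting. The brighter probe was not called with the block (adjusted p = 0.0760).

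None of the 7 probes of the kinase genes was called by limma, with or without the replicate block, and their log2 fold changes ran from -0.15 to 0.21. At an unadjusted p under 0.05 limma called 1 of the 7, a CAMK2G probe, beside 24.8% of all probes, and SAM called 0 of the 7. Over all probes kept limma called 7.83%, and 14.9% with the block, so nothing is read from these counts on 7 probes. Of all probes 53.6% lay below 0, and of the 7 kinase probes 6 were higher and 1 was lower on pre-miR-27a arrays. On the scale of the 75th percentile they lay between -0.19 and 0.27. There 6 of them were within the range of the spike-in transcripts, and the brightest CAMK2D probe, at -0.19, was below it. Whether the slide has a part in the kinase values was not tested. A p above the threshold does not show that the kinase transcripts were level, and the intervals below give the differences that remain possible.

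CAMK2G encodes the widely expressed gamma subunit. Its brighter probe (NM_172171, chromosome 10, 75242373 to 75242432) was at 12.55, 12.39 and 12.59 on pre-control arrays and at 12.72, 12.49 and 12.74 on pre-miR-27a arrays. The groups overlapped and the log2 fold change was 0.14 (95% interval -0.13 to 0.40). The second probe, which the files place over an interval of 1835 bases from 75244981 to 75246815, was at 8.74, 8.69 and 8.80 on pre-control arrays. On pre-miR-27a arrays it was at 8.94, 8.91 and 9.01, and the groups did not overlap. The log2 fold change was 0.21 (standard error 0.08, 95% interval 0.02 to 0.40, adjusted p = 0.159, and 0.0735 with the block).

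CAMK2D, the delta subunit of heart and other muscle, was measured by 3 probes. The brightest (NM_172127, chromosome 4, 114593707 to 114593766) was at 12.34, 12.09 and 12.32 on pre-control arrays and at 12.12, 11.91 and 12.26 on pre-miR-27a arrays. These groups overlapped, and the log2 fold change was -0.15 (95% interval -0.46 to 0.16). The other CAMK2D probes, both for NM_001221 and both listed over intervals longer than the probe, were at 0.10 (95% interval -0.09 to 0.30) and 0.17 (95% interval -0.21 to 0.55). All of these intervals included 0.

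CAMK2B, whose products include a form of skeletal muscle, was at 9.90, 10.33 and 10.05 on pre-control arrays and at 10.26, 10.16 and 10.34 on pre-miR-27a arrays. The groups overlapped, with a log2 fold change of 0.17 (95% interval -0.16 to 0.50). CAMK2A, the alpha subunit best known from forebrain neurons, gave signals that were low but well above background, at 5.33, 6.03 and 6.43 on pre-control arrays and at 5.33, 6.05 and 6.75 on pre-miR-27a arrays. Same-numbered arrays were close, and the numbers differed more than the groups. Its log2 fold change was 0.11, with a 95% interval of -0.98 to 1.21. CAMK2A had processed signals of 39.0 to 101 units, so the lower local background of the second slide is not small beside them, and its direction turned after normexp background correction (-0.02).

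**Figure D4:**
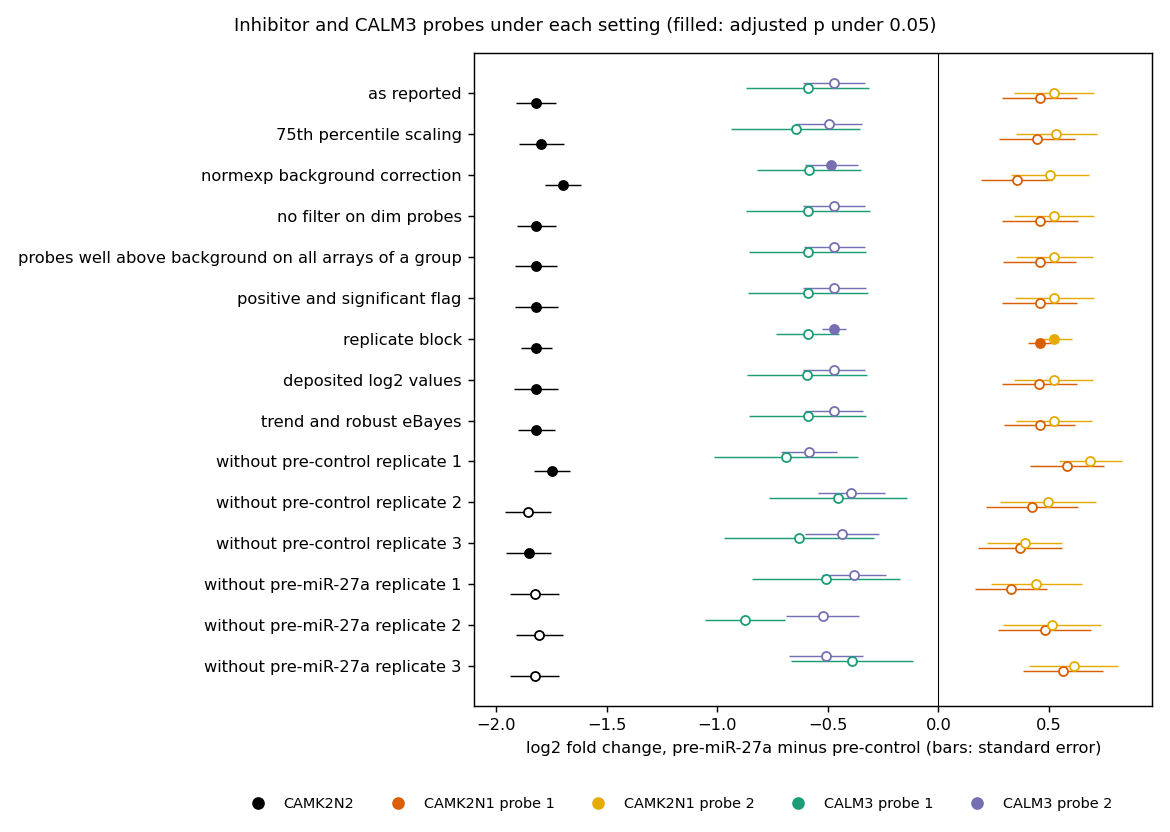
log2 fold change (x axis, with its standard error) of the CAMK2N2 probe and of the CAMK2N1 and CALM3 probes well above background, as reported and under each alternative, 1 row per setting. Filled points passed an adjusted p of 0.05. Each probe keeps its direction in every setting, CAMK2N2 between -1.85 and -1.70, and the CAMK2N1 probes are filled with the replicate block alone.

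Around these genes, 70 genes of calmodulin and calcium signalling were listed in 7 groups, of which 68 were measured. By the brightest probe of each gene limma called 0 of the 68 and SAM called 0 at 5%, where limma called 6.65% of all genes, 2.6% higher and 4.05% lower. At an unadjusted p under 0.05 there were 7 higher and 5 lower, which is 17.6% of the 68, against 22.9% of all genes (8.73% higher, 14.1% lower). With the replicate block 6 were called higher and 4 lower, or 14.7%, against 13.5% (5.45% higher, 8.05% lower). The median log2 fold change was -0.01 over the 68 genes and -0.04 over all genes. Over the 68 genes together, the share was below that of the whole array as reported and for unadjusted p, and close to it with the block. The lists differed. Of the 14 genes of calcium stores and entry, 50% had an unadjusted p under 0.05, 4 higher and 3 lower, and 28.6% were called with the block. Of the other calmodulin-regulated kinases 30% were called with the block. The lists of calmodulins and of calcineurin had 0 in either count.

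Of the 8 kinases of the CaMK cascade, which work beside CaMKII or activate its relatives, none was called by limma, and CAMKK1, at 0.31, was called with the block (adjusted p = 0.0477) and not as reported (adjusted p = 0.208). Of the 10 calmodulins and small calmodulin regulators none was called with or without the block. The 9 measured genes of calcineurin, the phosphatase that calmodulin activates, had 0 calls in both fits, with 8 below 0, where 56.6% of all genes lay below 0, and a median of -0.09. Among the 7 genes of phosphatases that act on CaMKII, the catalytic subunit gene PPP1CA was at -0.29 and was called with the block (adjusted p = 0.0475) but not as reported (adjusted p = 0.101).

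Other kinases that calmodulin regulates gave 0 calls as reported among 10 measured genes, and with the block MYLK and PHKG1 were called higher and PHKG2 lower. PHKG1, a catalytic subunit of phosphorylase kinase, was at 0.61 (adjusted p = 0.393 without and 0.0340 with the block). MYLK, the myosin light chain kinase, was at 0.44 (adjusted p = 0.0697), and PHKG2, another catalytic subunit of phosphorylase kinase, at -0.41 (adjusted p = 0.0530). In the list of CaMKII substrates 1 of 10 was called with the block, the transcription factor gene CREB1, at 0.51 (adjusted p = 0.0580 without and 0.0355 with it). The histone deacetylase genes HDAC4 and HDAC5, whose products CaMKII phosphorylates, were at 0.19 and -0.27 and were not called in either fit. Of the 14 genes of calcium stores and entry, PLCG1 and ORAI1 were called higher with the block and STIM1 and CACNA1C lower, and none was called as reported. Some listed genes were also called in unblocked alternatives, at most 4 higher and 1 lower of the 68. Both numbers were reached with normexp background correction, where 9.67% of all probes were called. The genes named from these lists were picked after their values were seen.

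**Figure D5:**
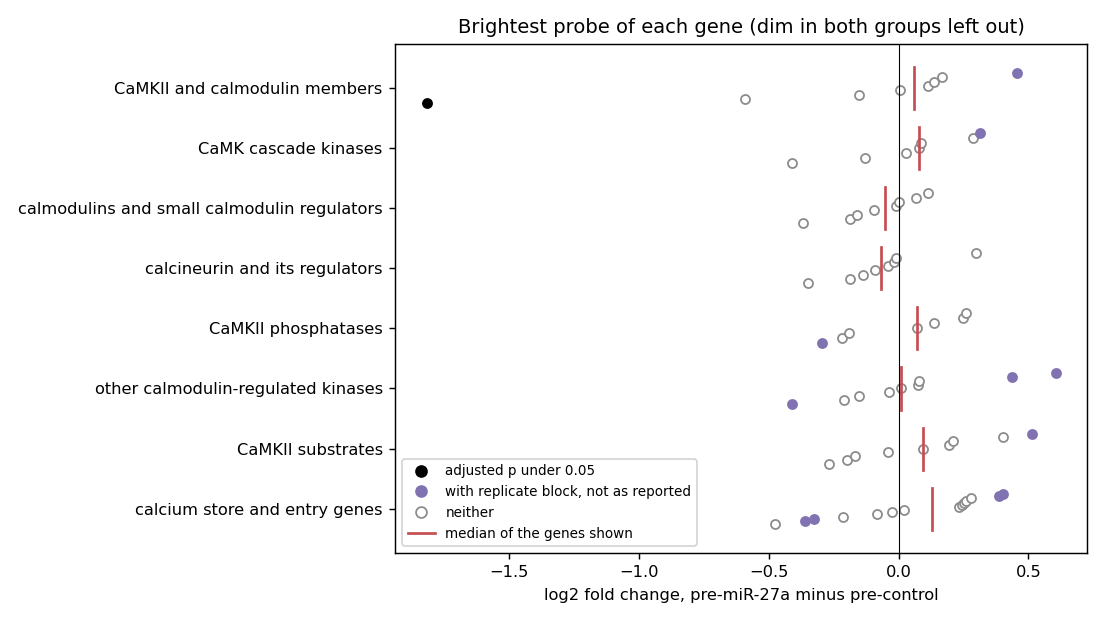
log2 fold change (x axis) of the brightest probe of each gene, for the 8 genes described above and for 62 genes of 7 lists of calmodulin and calcium genes, with the median as a line. The 6 genes not well above background on any array are left out. CAMK2N2 at -1.82 lies apart from the listed genes, which run from -0.48 to 0.61, and no listed gene passed the threshold in the fit as reported.

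The genes with array patterns most like those of the inhibitors were also sought, over 6 arrays and among probes well above background on all of them. For the brighter CAMK2N1 probe the closest were RPRD1B, ARID4B and DDX23, with Pearson correlations of 1.000, 0.997 and 0.997. For CAMK2N2 they were FTL, ATF6 and ORMDL3, at 0.999, 0.998 and 0.998. Correlations above 0.95 were reached by 191 and 639 probes out of 19254 and 19255 candidates. FTL was at -0.41, ORMDL3 at -0.52 and ATF6 at -0.26, smaller falls than that of CAMK2N2, and ATF6 was not called (adjusted p = 0.0750 from limma). RPRD1B, ARID4B and DDX23 were at 0.64, 0.18 and 0.24, and none was called (adjusted p 0.173 to 0.268). With 6 arrays in 2 groups, a high correlation with CAMK2N2 can follow from the group difference alone. The CAMK2N1 groups touched and its arrays also differed by replicate number, so its correlations take in both patterns. What either set of correlations reflects was not tested.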

How the data were processed

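The 8 genes and all gene lists were chosen with earlier results of these arrays known. The authors extracted, with Feature Extraction 10.5.1.1, the processed intensity of every spot, corrected for background within the array but not normalized between arrays, with quality flags. The deposited table holds log2 values of 33169 probes with 1322 missing cells, and it differed from the values computed here by a median of 0.0040 and, for the 14 probes, by at most 0.0507. All per-sample columns of that table were in use.

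Control spots were left out, log2 intensities were quantile normalized, spots with a found flag of 0 were set to missing, replicate spots were averaged, and a probe was kept if at most 1 array was missing. R 4.3.3 and limma 3.58.1 were used, and the fit without block and SAM were run on simulated data. The simulated arrays were independent, with no replicate pairs and no slide effect, so this run does not bear on either. The blocked fit was not simulated. SAM was coded for 2 unpaired groups, with all 20 relabellings of the arrays. Precision is limited by the 6 arrays, with a median standard error of 0.14 over all probes. The labels call the arrays biological replicates. Positions of probes follow the files (hg18), and no annotation of that build was used, so exons and UTRs are not given. List genes were matched to RefSeq symbols (GRCh38.p14) by accession or older name, and 25260 of 36469 probes had one.

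The replicate numbers come from the labels. Deviations from the group means correlated at 0.40, 0.46 and 0.41 across 31717 probes for same-numbered arrays, and at -0.27 to -0.12 for others. The deviations of a group cancel out by construction, so the negative values add nothing to the positive ones. Same-numbered arrays were treated as pairs in the blocked fit. The numbers are also the positions on the slides, and pairing and position cannot be told apart. The main fit has no block. The genes named are all 14 probes, a gene with several probes being given by its brightest where 1 value is used, at most 2 called genes of each list by size, and the 3 probes most like each inhibitor. A further gene that the rule names is not reported here. Other list genes are named as chosen after their values were seen. Alternatives were other scaling, background correction, filters, the replicate block, the deposited values, another variance model, each array left out, the mean of all probes of a gene, and SAM.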

Additional observations from a re-analysis of the deposited data

How the results depend on the processing

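The count called among the 14 probes was 0 higher and 1 lower. It became 2 higher and 2 lower with the replicate block and 0 higher and 2 lower after normexp background correction, and the number called lower ran from 0 to 1 with single arrays left out. The calls lost without pre-control replicate 2 or any 1 of the pre-miR-27a arrays were those of CAMK2N2, whose value moved by little. The block changed no call of the 14 probes other than those of CAMK2N1 and CALM3. Over the 68 genes of the calmodulin and calcium lists the counts of 0 higher and 0 lower became 6 and 4 with the block. They became 4 and 1 with normexp correction, 2 and 1 with trend and robust estimation and 1 and 1 with probes well above background. With 75th percentile scaling they were 1 and 0, and 0 to 1 were called lower with single arrays left out. The share called of all probes moved as well. It was 7.83% as reported, 14.9% with the block, 9.67% with normexp correction and 9.26% with trend and robust estimation. With probes well above background it was 12.6%, with 75th percentile scaling 8.93%, and with single arrays left out 0% to 3.5%. Nothing is read from the counts of the 14 probes or the 68 genes against these shares. Direction was reversed for CALM2 with 75th percentile scaling (-0.18) and with the deposited values (-0.024) and for CAMK2A with normexp correction (-0.018). With single arrays left out CALM2 ran from -0.026 to 0.023 and CAMK2A from -0.24 to 0.47. Causes of these changes were not tested. With every array in use, 104 probe values kept direction and side of the threshold, 4 gained a call and 3 were reversed. The median difference of all probes was -0.02 as reported and -0.09 with 75th percentile scaling, where 1275 probes were called higher and 1981 lower, in place of 1440 and 1416. Signal over background limits CAMK2A and the dim CAMK2N1 probe.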
